A study of Mus musculus with 23 samples.

Results

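Probe sets for the amino acid and monocarboxylate transporters were followed across 6 groups of mouse microglia, the resident macrophages of the brain, on expression arrays. A probe set was a member when its annotated gene symbol began with Slc1a, Slc3a, Slc6a, Slc7a, Slc16a, Slc36a, Slc38a or Slc43a, and 75 of the 22203 probe sets on the array met this rule. Of these, 74 stand for a transporter or its heavy chain. The remaining member, Slc7a6os, carries the name of its neighbour Slc7a6 and is not a transporter. Cells were sorted as CD45+ CD11b+ from cortex together with hippocampus. Gated APP cells came from APPswlnd mice of 12 months with pathology and were the Clec7a+ fraction, which the labels call active microglia (4 samples). Gated TAU cells were the same Clec7a+ fraction from P301S (PS19) mice with pathology (4 samples), aged 9 months by the age and source labels, although their titles read 12 months. WT cells came from C57BL6 mice of 12 months (4 samples). Young APP (3 samples) and young TAU (4 samples) cells came from the same transgenic strains at 3 months, before pathology, and young WT cells (4 samples) from C57BL6 mice of 3 months. No Clec7a gate is named for WT or for the young groups. Between each gated group and WT at 12 months the strain, the pathology and the gate therefore differ together, for gated TAU the age as well, and these cannot be told apart. The sources used here give neither the promoters that drive the transgenes nor the sex of the mice. They call the replicates biological without saying whether each is a single mouse, so p-values measure the spread between these samples.

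Solute carriers move amino acids and small monocarboxylates such as lactate, pyruvate and ketone bodies across the plasma membrane and the lysosomal membrane. Microglia are known to release glutamate through the cystine-glutamate antiporter xCT, encoded by Slc7a11, and to export lactate when glycolysis runs fast, and MCT4, encoded by Slc16a3, is the lactate exporter of glycolytic cells. Many of the light chains of the Slc7a family reach the membrane only with the heavy chain 4F2hc, encoded by Slc3a2, and MCT1 and MCT4 reach it only with basigin. Transcription of these genes is known to follow amino acid supply through ATF4, oxidative stress through NRF2, low oxygen through HIF-1, and lysosomal state through TFEB and MITF.

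Promoter sequence was available in RefSeq (GRCm38.p6) for 54 of the 75 member genes, as windows of 300 bases, 250 before and 50 from each annotated start. Stretches of 160 bases, 150 before the start and 10 from it, are printed for 3 members on which the results below turn, each holding a motif of a factor named above. They are written 5′ to 3′ on the strand of the gene, with the motif in capitals and positions counted from the start. Capitals mark ACGTG, the core of the HIF-1 element, in Slc16a3 (chr11:120948917-120949076, plus strand). They mark TGATGNAA, the C/EBP-ATF element read by ATF4, in Slc7a11 (chr3:50443604-50443763, minus strand). In Slc36a1 (chr11:55204190-55204349, plus strand) they mark CACGTG, the E-box core that TFEB and MITF read.
Slc16a3: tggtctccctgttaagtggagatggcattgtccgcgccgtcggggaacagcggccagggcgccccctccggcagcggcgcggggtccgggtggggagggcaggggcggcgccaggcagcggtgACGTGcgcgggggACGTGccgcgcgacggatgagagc
Slc7a11: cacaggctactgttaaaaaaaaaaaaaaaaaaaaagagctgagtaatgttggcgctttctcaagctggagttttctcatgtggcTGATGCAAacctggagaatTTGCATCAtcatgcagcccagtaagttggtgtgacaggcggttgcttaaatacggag
Slc36a1: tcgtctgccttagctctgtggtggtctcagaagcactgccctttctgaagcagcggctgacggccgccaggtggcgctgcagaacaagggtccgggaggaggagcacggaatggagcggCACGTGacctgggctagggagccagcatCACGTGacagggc

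Each of the 3 stretches holds its motif 2 times. In Slc16a3 the cores lie at -27 to -23 and at -14 to -10, both on the gene's strand. In Slc7a11 they lie at -66 to -59 and, on the opposite strand, at -47 to -40. In Slc36a1 they lie at -31 to -26 and across the start at -3 to 3, and each of these also contains ACGTG on either strand. Searched on both strands in all 32851 promoter windows, ACGTG was present in 19.6%, TGATGNAA in 3.97% and CACGTG in 7.15%. Windows with 2 or more matches made up 8.21%, 0.07% and 0.594% of all windows for the same motifs in that order. A single CACGTG counts as 2 matches of ACGTG, 1 on each strand, so every window with CACGTG is within the 8.21%. The 54 member genes have 75 windows, of which 22 held ACGTG, 5 TGATGNAA and 10 CACGTG. Counted by gene, in any of its windows, ACGTG was present in 19, TGATGNAA in 4 (Slc1a4, Slc6a21, Slc7a7 and Slc7a11) and CACGTG in 10. There were 2 or more matches in 12, 2 and 1 of the genes for the same motifs, and the 12 include all 10 genes with CACGTG. The NRF2 core TGACNNNGC, searched in the same way, was present in 12.4% of all windows and in 12 of the 75 member windows, from 10 genes, and overlaps the printed end of Slc36a1. A match is a description of these letters and not a site of binding.

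The values are log2 RMA signals. Array medians lay between 6.87 and 7.13. A probe set was taken as above background in a group when its group mean passed the 95th percentile of 1464 probe sets for odorant, vomeronasal, trace amine and taste receptors, which lay between 7.72 and 8.11 by group. On single arrays that percentile was highest in WT 12 months replicates 2 and 4, at 8.71 and 8.72, so results against WT at 12 months are also given without both. All 12 measured microglia markers, P2ry12 and Tmem119 among them, were above background in every group. Their mean lay between 14.37 and 14.76 in gated cells and between 15.10 and 15.77 in the other samples. Relative to WT at 12 months, 6 were called lower in gated APP and 7 in gated TAU cells. With arrays centred on their medians, 4 were called lower in gated APP and 6 in gated TAU. Of 15 astrocyte markers 4 or 5 were above background by group, of 13 neuron markers 5, of 8 oligodendrocyte lineage markers 1, of 13 endothelial and pericyte markers between 3 and 5, and of 8 border macrophage markers 4. No monocyte marker of 5 was above background in any group. Of 7 lymphocyte markers 1 was above it, in gated cells only, and of 2 erythroid markers 1. Of 8 neutrophil markers none was above background in gated cells, against 1 in WT at 12 months and between 1 and 3 in young groups, and the mean of the list lay between 5.68 and 5.96 in gated samples, against 6.25 to 8.02 in WT at 12 months. Gated APP replicate 2 had the highest endothelial mean, 8.39, against 6.63 to 7.69 in all other samples. These are bulk samples, in which fewer cells of a type and less RNA per cell cannot be told apart, and the part these markers play in the results below was not tested unless a value is given.

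In these cells 33 of the 75 members were above background in at least 1 group, 23 in all 6 groups, and 42 in none. By group the count was 29 in gated APP, 28 in gated TAU, 26 in WT at 12 months, 28 in young APP, 30 in young TAU and 30 in young WT. These counts were 34.7% to 40% of the members, against 32.7% to 37.5% of all probe sets. Members above background in every group numbered 6 of 11 in the Slc38a family (sodium-coupled neutral amino acid transporters) and 5 of 13 in Slc16a (monocarboxylate transporters). They numbered 5 of 19 in Slc6a (neurotransmitter-type transporters), 3 of 16 in Slc7a and 2 of 4 in Slc36a (lysosomal and cell surface). They numbered 1 of 7 in Slc1a (glutamate and neutral amino acid exchangers), 1 of 2 in Slc3a (the heavy chains) and 0 of 3 in Slc43a. The heat map of group means shows that most of these probe sets differed little between groups. Its strongest contrasts lay between the gated columns and the others in a few lines, Slc1a2, Slc7a11, Slc16a3, Slc16a6, Slc36a1, Slc7a8 and Slc38a2.

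**Figure D1:**
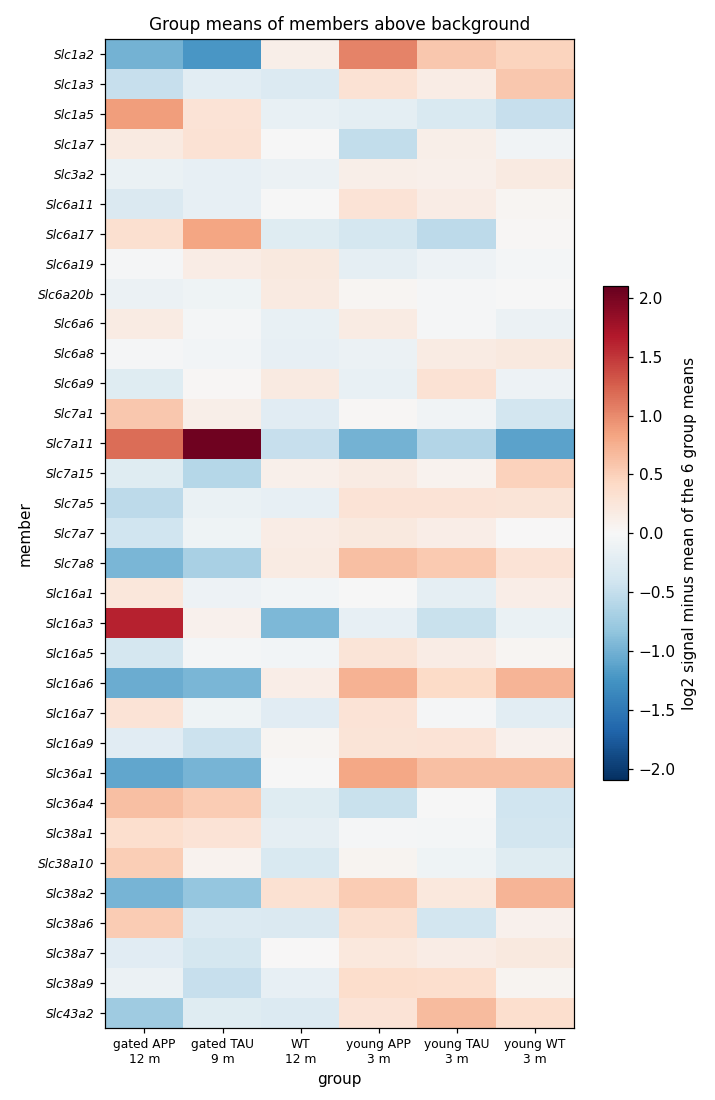
Log2 RMA signal of the 33 members above background in at least 1 group (vertical axis, by family), as the group mean minus the mean of the 6 group means (colour, log2 units), for the 6 groups (horizontal axis). Slc16a3 is highest in gated APP, Slc7a11 in gated TAU, and Slc16a6, Slc36a1 and Slc38a2 are lowest in the gated groups.

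Gated APP cells were compared with WT cells of the same age, the contrast of the amyloid model. Slc16a3 (lactate export), Slc7a11 (cystine uptake), Slc38a6, Slc36a4 and Slc1a5 rose, and Slc38a2 (glutamine and alanine uptake), Slc16a6, Slc7a8, Slc36a1 and Slc7a10 fell. By limma across all probe sets with Benjamini-Hochberg adjustment, 10 of 75 members were called at an adjusted p under 0.05, 5 higher and 5 lower. Of all probe sets 9.08% were called, 5.6% higher and 3.48% lower, so the share of members called, 13.3%, lay a little above that of the array. The median log2 difference was -0.04 over the members and -0.06 over all probe sets. The count was 6, with 2 higher and 4 lower, without WT 12 months replicate 2, without gated APP replicate 2, and without both WT 12 months replicates 2 and 4. In that last setting the members kept were Slc7a11, Slc16a3, Slc16a6, Slc36a1, Slc7a8 and Slc38a2.

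Gated TAU cells were set against the same 4 WT samples, so both comparisons share them. Slc7a11 (cystine uptake), Slc16a3 (lactate export), Slc6a17, Slc36a4, Slc16a10 and Slc38a8 rose, and Slc38a2, Slc16a6, Slc36a1, Slc7a8 and Slc6a13 fell. There were 11 members called, 6 higher and 5 lower, or 14.7% of 75, against 8.76% of all probe sets, of which 5.09% were higher and 3.67% lower. The median log2 difference was -0.01 over the members and -0.05 over all probe sets. The count was 7 without WT 12 months replicate 1, 6 without gated TAU replicate 1 or replicate 2, and 5 without both WT 12 months replicates 2 and 4. The 5 were Slc7a11, Slc36a1, Slc16a6, Slc7a8 and Slc38a2. Fitted on gated TAU and WT samples at 12 months alone, the count was 6.

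**Figure D2:**
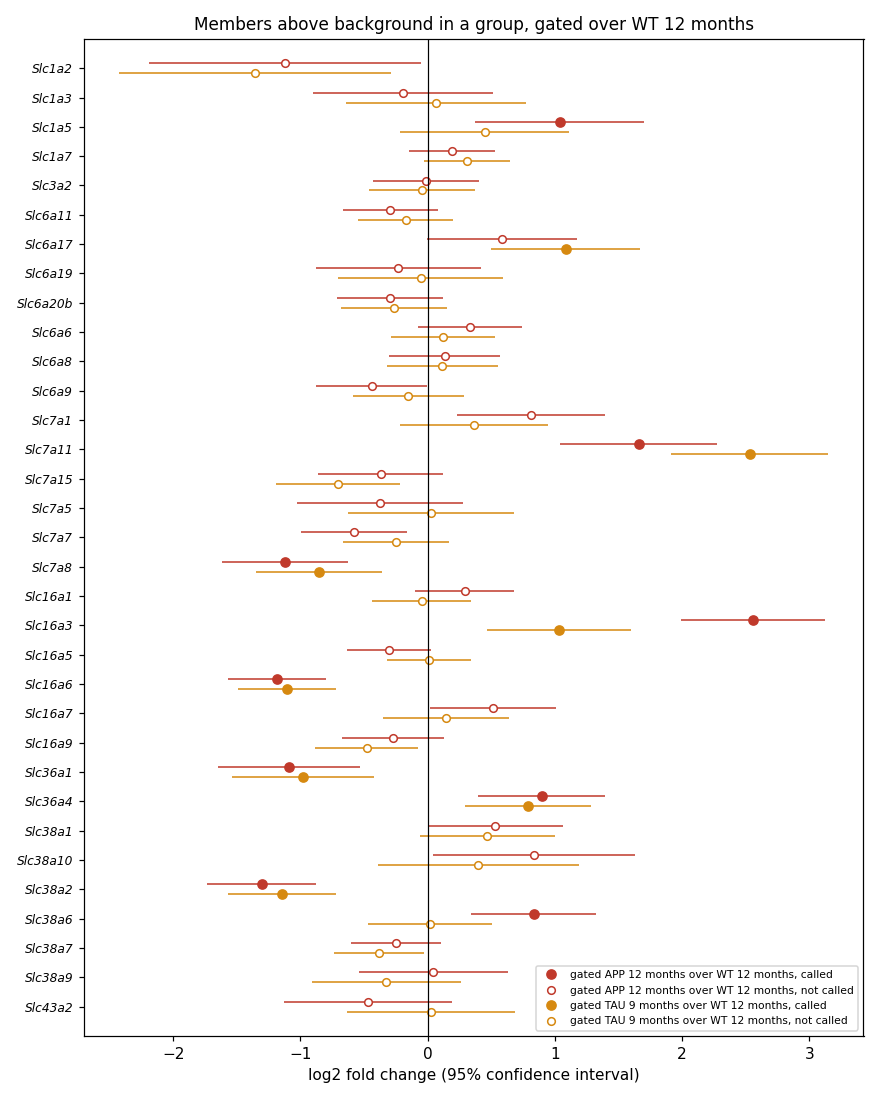
Log2 difference (horizontal axis) with its 95% confidence interval for the 33 members above background in at least 1 group (vertical axis), for gated APP over WT at 12 months (red, upper line of each pair) and gated TAU over WT at 12 months (amber). Filled points are called. Slc16a3 at 2.56 in gated APP and Slc7a11 at 2.53 in gated TAU lie farthest to the right, and Slc38a2 is called on the left at -1.30 in gated APP and -1.15 in gated TAU.

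Among the monocarboxylate transporters, Slc16a3 was at 10.48, 10.96, 9.95 and 9.93 in gated APP samples and at 8.66, 8.52, 9.11 and 8.93 in gated TAU samples, against 8.04, 7.01, 8.36 and 7.67 in WT at 12 months. Every gated sample lay above every WT sample of 12 months, and the gated APP samples also lay above all others of the series. The log2 difference was 2.56 ± 0.27 (SE) for gated APP (limma adjusted p = 5.87e-07) and 1.03 ± 0.27 for gated TAU (adjusted p = 0.0181). The WT mean of 7.77 ± 0.58 (SD, n = 4) lay below background, with 2 of 4 arrays above their own, so the changes are lower bounds, at least 4.67-fold in gated APP and at least 1.62-fold in gated TAU. Such a bound sets the mean of the brighter group against the background of the dimmer one. Without WT 12 months replicates 2 and 4 the difference was 2.13 in gated APP (adjusted p = 5.72e-05) and 0.61 in gated TAU (adjusted p = 0.281). The TAU call was also lost without WT 12 months replicate 2 alone, without gated TAU replicate 3, and when only the compared groups were fitted. Young samples had 8.53 to 8.55 in young APP, 7.63 to 8.62 in young TAU and 8.27 to 8.83 in young WT, a range that the gated TAU samples overlap and the gated APP samples do not.

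Slc16a6, which encodes a monocarboxylate transporter shown in zebrafish to export ketone bodies from the liver, moved the other way. It was at 12.24, 12.34, 12.09 and 11.97 in gated APP samples and at 12.27, 11.97, 12.22 and 12.48 in gated TAU samples, against 13.30, 12.94, 13.49 and 13.64 in WT at 12 months. All 8 gated samples lay below all 15 others, among which the lowest was WT 12 months replicate 2. The signal was 2.27-fold lower in gated APP (log2 difference -1.18 ± 0.19, adjusted p = 0.000116) and 2.15-fold lower in gated TAU (-1.11 ± 0.19, adjusted p = 0.000355), and both calls held in all 10 alternatives and without any single sample. Slc16a1, which encodes the lactate and pyruvate transporter MCT1, averaged 9.35 ± 0.18 in gated APP and 9.01 ± 0.48 in gated TAU, against 9.06 ± 0.10 in WT at 12 months (SD, n = 4 each). Slc16a7, which encodes the high-affinity MCT2, averaged 10.12 ± 0.41 in gated APP and 9.75 ± 0.54 in gated TAU, against 9.61 ± 0.42 in WT at 12 months. Differences in both genes were within 0.52 on the log2 scale and were not called. Slc16a10, which encodes the aromatic amino acid transporter TAT1, was called higher in gated TAU (1.21 ± 0.26, adjusted p = 0.00434), but its means of 7.16 ± 0.48 in gated TAU and 5.95 ± 0.58 in WT at 12 months were both at background, the samples overlapped, and no fold is given. That call was lost without WT 12 months replicates 2 and 4 and when only the compared groups were fitted. Slc16a5 and Slc16a9 had group means from 7.89 to 8.70 and were not called.

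The cystine-glutamate antiporter gene Slc7a11 was at 9.76, 9.68, 9.92 and 9.75 in gated APP samples and at 9.93, 11.21, 11.49 and 9.97 in gated TAU samples, against 8.43, 8.40, 7.81 and 7.84 in WT at 12 months. All 8 gated samples lay above all 15 others. The gated APP samples were close to each other, whereas in gated TAU replicates 2 and 3 were higher than replicates 1 and 4. Signal was 3.15-fold higher in gated APP (1.66 ± 0.30, adjusted p = 0.000531) and 5.78-fold higher in gated TAU (2.53 ± 0.30, adjusted p = 3.69e-06). The WT mean, 8.12 ± 0.34, was just over the background of 8.11, and 2 of 4 WT arrays were above their own. Both calls held in all 10 alternatives and without any single sample, at 1.55 to 1.76 in gated APP and 2.25 to 2.77 in gated TAU. Border macrophage markers averaged 8.44, 8.22, 9.08 and 8.39 in the gated TAU samples in order of replicate, against 7.78 to 8.07 in WT at 12 months, and in gated APP samples 7.64 to 8.0. Of the 8 markers only Ms4a7 was called in gated TAU, 11.8-fold higher (adjusted p = 1.82e-05), at 11.48, 12.23, 14.27 and 11.17 in gated TAU samples, against 8.58, 8.09, 9.27 and 8.97 in WT at 12 months. Without Ms4a7 the mean of the other 7 markers was 7.65 to 8.33 in gated TAU samples, which overlapped the 7.73 to 7.93 in WT at 12 months. Among these 7, Mrc1 averaged 10.72 in gated TAU and 10.2 in WT at 12 months, Cbr2 9.03 and 8.89, and Pf4 9.48 and 9.32, all above background. Cd163, Lyve1, F13a1 and Folr2 were at background in both groups. The part of these genes in the Slc7a11 values was not tested.

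The heavy chain gene Slc3a2, whose product carries xCT and the LAT transporters to the membrane, showed no such difference. It averaged 15.25 ± 0.05 in gated APP and 15.22 ± 0.26 in gated TAU, against 15.27 ± 0.36 in WT at 12 months, with log2 differences of -0.01 in gated APP and -0.04 in gated TAU. Among its partners, Slc7a8, which encodes the neutral amino acid exchanger LAT2, was at 11.95, 12.19, 11.87 and 11.89 in gated APP samples and at 12.25, 12.01, 12.61 and 12.11 in gated TAU samples, against 13.16, 12.85, 13.63 and 12.75 in WT at 12 months. Gated samples all lay below the WT samples of 12 months, and of the young samples only young WT replicate 1, at 12.32, came within their range. Signal was 2.18-fold lower in gated APP (-1.12 ± 0.24, adjusted p = 0.00295) and 1.81-fold lower in gated TAU (-0.85 ± 0.24, adjusted p = 0.0271). The TAU call was lost when arrays were centred on their medians, when only the compared groups were fitted, and without each of 5 single samples, among them gated TAU replicates 1, 2 and 4.

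Slc7a5, which encodes LAT1, the large neutral amino acid exchanger of dividing and activated cells, averaged 7.96 ± 0.40 in gated APP and 8.36 ± 0.13 in gated TAU, against 8.34 ± 0.55 in WT at 12 months, and was not called. Slc7a7, which encodes the cationic and neutral amino acid exchanger y+LAT1, averaged 10.96 ± 0.22 in gated APP and 11.29 ± 0.23 in gated TAU, against 11.53 ± 0.13 in WT at 12 months, at adjusted p = 0.079 in gated APP and 0.512 in gated TAU. Slc7a1, which encodes the arginine and lysine transporter CAT1, was above background in gated APP only, at 7.87 ± 0.44 against 7.06 ± 0.19 in WT at 12 months, and at 7.42 ± 0.50 in gated TAU. Its difference of 0.81 in gated APP had an adjusted p of 0.0788. Slc43a2, which encodes the facilitative transporter LAT4, averaged 7.45 ± 0.47 in gated APP and 7.94 ± 0.40 in gated TAU, against 7.92 ± 0.51 in WT at 12 months. Slc7a10, which encodes the small neutral amino acid exchanger Asc-1, was called lower in gated APP (-0.59 ± 0.19, adjusted p = 0.0482) at 6.89 ± 0.19, against 7.49 ± 0.31 in WT at 12 months, both at background, and the call was kept without only 2 of 8 single samples. Slc7a15 was not called, at 7.73 ± 0.26 in gated APP and 7.39 ± 0.40 in gated TAU, against 8.10 ± 0.27 in WT at 12 months.

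**Figure D3:**
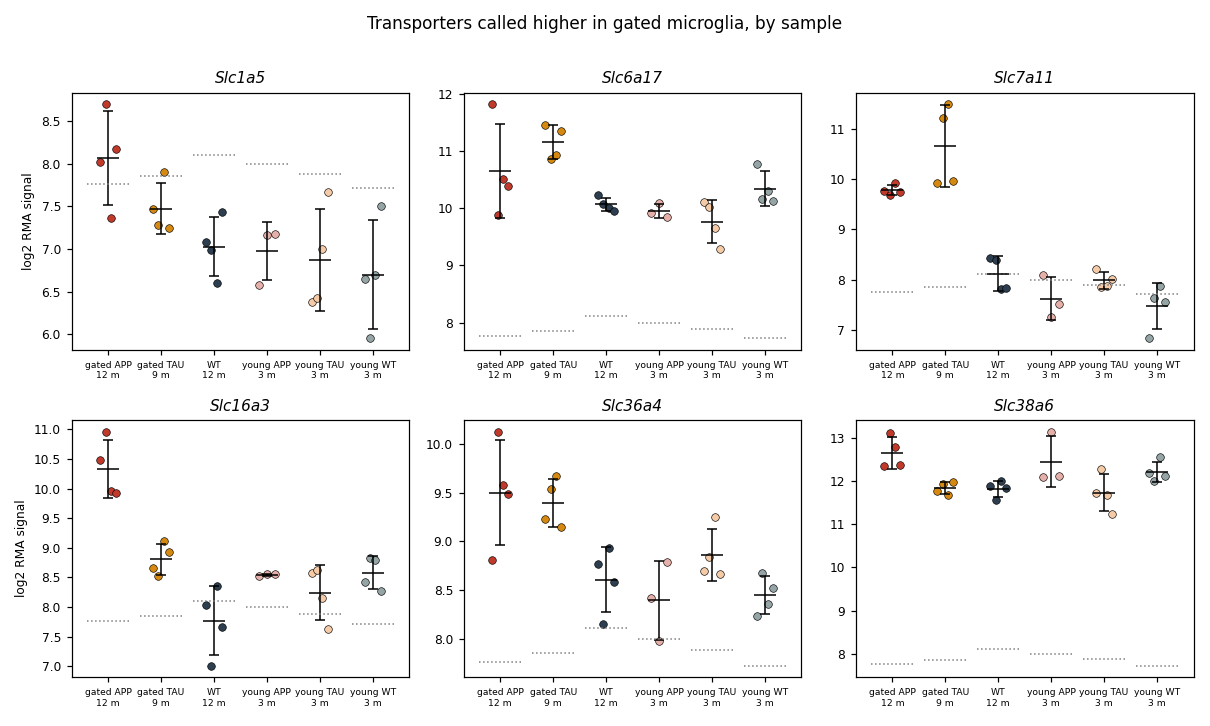
Log2 RMA signal (vertical axis) in each of the 23 samples (points) by group (horizontal axis), with the group mean and SD (bars), for 6 members called higher in a gated group. Dotted lines mark the background of each group. All Slc7a11 points of the gated groups, from 9.68 upward, lie above those of the other groups, which end at 8.43.

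Among the glutamine and neutral amino acid transporters, Slc38a2, which encodes SNAT2, the system A transporter that amino acid shortage is known to induce, was at 13.94, 13.88, 14.04 and 13.47 in gated APP samples and at 13.84, 14.22, 14.09 and 13.82 in gated TAU samples, against 15.24, 14.95, 15.47 and 14.89 in WT at 12 months. All 8 gated samples lay below all 15 others. Signal was 2.47-fold lower in gated APP (-1.30 ± 0.21, adjusted p = 0.000117) and 2.21-fold lower in gated TAU (-1.15 ± 0.21, adjusted p = 0.000734), in all 10 alternatives and without any single sample. Slc38a1, which encodes the related SNAT1, averaged 10.34 ± 0.38 in gated APP and 10.27 ± 0.15 in gated TAU, against 9.80 ± 0.45 in WT at 12 months, and was not called (0.53 in gated APP, adjusted p = 0.227, and 0.47 in gated TAU, adjusted p = 0.293).

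Slc38a6, an SNAT-family gene, was at 12.35, 13.11, 12.80 and 12.37 in gated APP samples, against 11.89, 11.57, 12.00 and 11.84 in WT at 12 months. Gated APP samples lay above all 4 of these, but not above the young APP samples, of which replicate 2 reached 13.15. The difference was 1.78-fold (0.83 ± 0.24, adjusted p = 0.026), and it lost its call without gated APP replicate 2 or 3, WT 12 months replicate 2 or 4, or both of these WT replicates. In gated TAU cells Slc38a6 averaged 11.84 ± 0.14, against 11.82 ± 0.18 in WT at 12 months. Slc1a5, which encodes the glutamine exchanger ASCT2, was at 8.02, 8.70, 7.36 and 8.18 in gated APP samples, against 7.08, 6.99, 6.60 and 7.44 in WT at 12 months. The groups overlapped, 2 of 4 gated APP arrays were above their own background and no WT array was, so no fold is given (1.04 ± 0.32, adjusted p = 0.0444), and the call was kept without only 2 of 8 single samples. Gated APP replicate 2, with the highest endothelial mean, had the highest gated APP signal of Slc1a5, Slc38a6, Slc36a4 and Slc16a3. Without it the first 3 were not called and Slc16a3 was.

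The lysosomal glutamine exporter gene Slc38a7 averaged 9.35 ± 0.24 in gated APP and 9.21 ± 0.22 in gated TAU, against 9.60 ± 0.30 in WT at 12 months. Slc38a9, which encodes the lysosomal arginine sensor of mTORC1, averaged 9.42 ± 0.22 in gated APP and 9.05 ± 0.66 in gated TAU, against 9.37 ± 0.62 in WT at 12 months, and Slc38a10 averaged 10.84 ± 0.53 in gated APP and 10.40 ± 0.61 in gated TAU, against 10 ± 0.60 in WT at 12 months. None of the 3 was called. Slc38a8, a glutamine transporter gene at background in every group, was called higher in gated TAU (0.49 ± 0.15, adjusted p = 0.0459) and kept that call in 3 of 9 alternatives.

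In the Slc36a family, whose amino acid transporters sit on lysosomes and at the cell surface, Slc36a1 and Slc36a4 were called in opposite directions. Slc36a1, which encodes PAT1, was at 9.07, 9.41, 8.69 and 9.23 in gated APP samples and at 9.15, 8.96, 9.25 and 9.49 in gated TAU samples, against 10.65, 9.72, 10.37 and 10.02 in WT at 12 months. All 8 gated samples lay below all 15 others, and WT 12 months replicate 2 was the nearest. Signal was 2.13-fold lower in gated APP (-1.09 ± 0.27, adjusted p = 0.0102) and 1.97-fold lower in gated TAU (-0.98 ± 0.27, adjusted p = 0.0244). The APP call held in all 10 alternatives, and the TAU call was lost when arrays were centred on their medians and without WT 12 months replicate 1 or gated TAU replicate 1 or 2.

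Slc36a4, which encodes PAT4, was at 8.81, 10.13, 9.58 and 9.49 in gated APP samples and at 9.23, 9.54, 9.67 and 9.15 in gated TAU samples, against 8.77, 8.15, 8.93 and 8.58 in WT at 12 months. The gated TAU samples lay above all WT samples of 12 months, whereas gated APP replicate 1 fell within their range. Signal was 1.86-fold higher in gated APP (0.90 ± 0.24, adjusted p = 0.0179) and 1.73-fold higher in gated TAU (0.79 ± 0.24, adjusted p = 0.0415). Without WT 12 months replicates 2 and 4 the differences were 0.65 in gated APP (adjusted p = 0.241) and 0.55 in gated TAU (adjusted p = 0.326), neither of them called, and both calls were also lost when only the compared groups were fitted. The TAU call was kept without only 2 of 8 single samples. The APP call was lost without WT 12 months replicate 2 and without gated APP replicate 2 or 3.

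**Figure D4:**
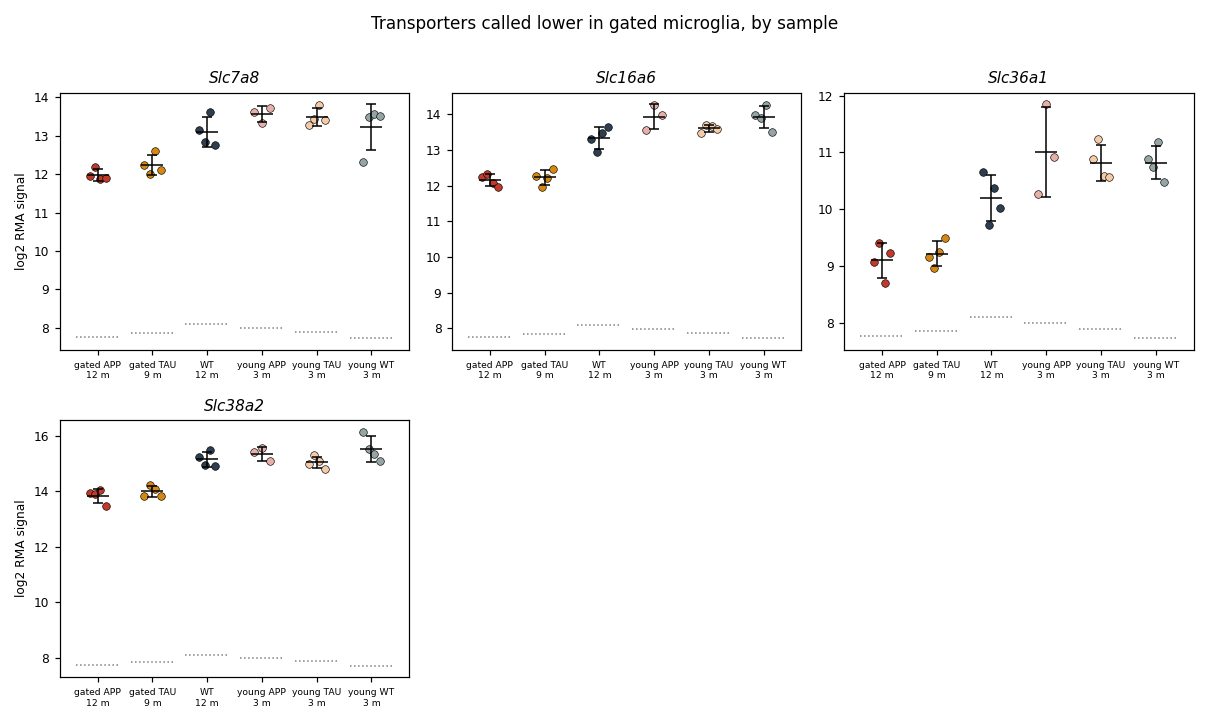
Log2 RMA signal (vertical axis) in each of the 23 samples (points) by group (horizontal axis), with the group mean and SD (bars), for the 4 members called lower in a gated group and above background. Dotted lines mark the background of each group. Gated points of Slc38a2 end at 14.22 and those of Slc16a6 at 12.48, below the points of every other group.

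Of the neurotransmitter-type transporters, Slc6a17, which encodes the vesicular neutral amino acid transporter NTT4 of neurons, was at 11.46, 10.86, 10.94 and 11.36 in gated TAU samples, against 10.23, 10.08, 10.01 and 9.96 in WT at 12 months. Gated TAU samples lay above all WT and young samples, and the difference was 2.12-fold (1.08 ± 0.28, adjusted p = 0.0173), lost without gated TAU replicate 1 and without WT 12 months replicates 2 and 4. Gated APP samples were at 11.82, 9.89, 10.51 and 10.39, which overlapped the WT samples, and the difference of 0.58 was not called (adjusted p = 0.237). None of the 13 neuron markers was called in either gated comparison. Their mean was 7.331, 7.536, 7.304 and 8.495 in gated TAU samples, against 7.585, 7.142, 7.562 and 7.616 in WT at 12 months. In gated APP samples it was 7.645, 6.995, 7.788 and 7.653. Gated TAU replicate 4 had the highest neuron mean of all samples. The part of neuron RNA in the Slc6a17 values was not tested. Slc6a13, which encodes the GABA transporter GAT2, was called lower in gated TAU (-0.81 ± 0.25, adjusted p = 0.0452) at 6.37 ± 0.15, against 7.17 ± 0.36 in WT at 12 months, both at background, and was kept without only 2 of 8 single samples.

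Slc6a6, which encodes the taurine transporter, averaged 12.91 ± 0.25 in gated APP and 12.70 ± 0.36 in gated TAU, against 12.57 ± 0.07 in WT at 12 months, and was not called. Group means were 8.20 to 8.57 for Slc6a8 (creatine uptake), 8.26 to 8.83 for Slc6a9 (glycine uptake), 8.70 to 8.99 for Slc6a20b, 7.71 to 8.12 for Slc6a19 and 7.57 to 8.16 for Slc6a11, and none of these was called in any of the 8 comparisons.

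Slc1a2, which encodes GLT-1, the main glutamate transporter of astrocytes, was at 9.41, 8.83, 10.90 and 10.91 in gated APP samples and at 9.64, 9.06, 9.17 and 11.23 in gated TAU samples, against 11.38, 10.26, 11.56 and 11.32 in WT at 12 months. The groups overlapped, and the differences of -1.12 ± 0.52 in gated APP (adjusted p = 0.209) and -1.35 ± 0.52 in gated TAU (adjusted p = 0.113) were not called. The mean of the 15 astrocyte markers was 7.48, 7.18, 7.99 and 7.95 in gated APP samples and 7.31, 6.64, 7.02 and 7.75 in gated TAU samples, against 7.87, 7.25, 7.91 and 7.63 in WT at 12 months, and these overlapped. In that list Gfap was called higher in gated APP (7.91 against 5.48 in WT at 12 months) and no other marker was called in either comparison. Only 4 of the 15 were above background in WT at 12 months. Their means in gated APP, gated TAU and WT at 12 months were 8.44, 8.20 and 9.33 for Aldoc and 10.69, 10.45 and 11.08 for Clu. For Ndrg2 they were 12.72, 11.05 and 12.45, and for Sparcl1 12.09, 10.37 and 12.15. The part of astrocyte RNA in the Slc1a2 values was not tested. Slc1a3, which encodes the astrocyte glutamate transporter GLAST, averaged 7.41 ± 0.15 in gated APP and 7.67 ± 0.28 in gated TAU, against 7.61 ± 0.48 in WT at 12 months, all at background, and Slc1a7 averaged 8.34 ± 0.27 in gated APP and 8.45 ± 0.17 in gated TAU, against 8.14 ± 0.08 in WT at 12 months.

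Gated APP cells were also set directly against gated TAU cells, which share the gate. They differ in strain, in the pathology that comes with it and in age, and these cannot be told apart. Slc16a3 was the only member called, out of 75, against 0.928% of all probe sets, of which 0.626% were higher in gated APP. It was 2.88-fold higher in gated APP (1.52 ± 0.27, adjusted p = 0.00315), each gated APP sample lay above each gated TAU sample, and the call held in all 9 alternatives and without any single sample, at 1.31 to 1.66. Slc7a11 differed in the other direction by -0.87 and was not called (adjusted p = 0.258), and gated TAU replicates 1 and 4 lay close to the gated APP samples. Slc38a6 (0.81, adjusted p = 0.136) and Slc6a17 (-0.50, adjusted p = 0.651) were not called either. For Slc38a2, Slc16a6 and Slc36a1 the difference was between -0.16 and -0.07. At an unadjusted p under 0.05 there were 8 of 75 members (10.7%), a share near the 9.18% of all probe sets.

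In young mice, before pathology and with no gate named, transporter signals were compared between young APP or young TAU and young WT. No member was called in either comparison, and neither was any other probe set (0% of 22203). In each comparison 2 of 75 members (2.67%) had an unadjusted p under 0.05 by limma, against 2.92% of all probe sets in young APP and 4.15% in young TAU. In young APP these members were Slc1a7 (-0.45) and Slc7a14 (0.43), and in young TAU Slc6a14 (-0.64) and Slc38a2 (-0.48). Slc7a11 differed by 0.15 in young APP (95% interval -0.52 to 0.81) and by 0.51 in young TAU (-0.10 to 1.13). Slc16a3 differed by -0.04 in young APP (-0.65 to 0.57) and by -0.34 in young TAU (-0.90 to 0.23), so differences as large as those of the gated APP cells lay outside these intervals.

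WT cells of 12 months were set against WT cells of 3 months to give the change with age without a transgene. No member was called, against 0.036% of all probe sets. At an unadjusted p under 0.05 by limma there were 8 members (10.7%), against 8.95% of all probe sets. Slc16a3 averaged 7.77 ± 0.58 at 12 months and 8.58 ± 0.28 at 3 months (-0.81, adjusted p = 0.439). Slc7a11 averaged 8.12 ± 0.34 at 12 months and 7.47 ± 0.45 at 3 months (0.64, adjusted p = 0.543). Slc36a1 averaged 10.19 ± 0.41 at 12 months and 10.82 ± 0.29 at 3 months (-0.63, adjusted p = 0.524). Slc16a6 averaged 13.34 ± 0.30 at 12 months and 13.92 ± 0.31 at 3 months (-0.57, adjusted p = 0.431).

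The change from young to gated cells of a strain was then tested against the change from young to aged WT cells. This takes out the strain difference present at 3 months but keeps gate and pathology together. For TAU, a change from 3 to 9 months was set against 1 from 3 to 12 months, so age differed as well. For APP, 4 members were called, against 3.8% of all probe sets, 1 higher (2.82% of all) and 3 lower (0.977% of all). Slc16a3 differed by 2.60 ± 0.40 (adjusted p = 0.000256), Slc7a8 by -1.47 ± 0.35 (adjusted p = 0.0172), Slc16a6 by -1.20 ± 0.27 (adjusted p = 0.0118) and Slc38a2 by -1.13 ± 0.30 (adjusted p = 0.0346). The count was 2 without young APP replicate 2, and Slc16a3 alone was called without any single sample and in all 10 alternatives. The Slc38a2 call was kept without only 7 of 15 single samples and in 8 of 10 alternatives, with limma adjusted p up to 0.115. For TAU, 3 members were called, all higher, against 3.75% of all probe sets, of which 2.6% were higher. Slc7a11 differed by 2.02 ± 0.42 (adjusted p = 0.00672), Slc6a17 by 1.66 ± 0.40 (adjusted p = 0.0198) and Slc16a3 by 1.37 ± 0.39 (adjusted p = 0.0476). The count was 1 without young TAU replicate 4, and Slc7a11 kept its call in all 10 alternatives and without any single sample. The Slc16a3 call was kept without only 4 of 16 single samples and in 6 of 10 alternatives, with differences down to 0.94 and adjusted p up to 0.25. In both strains the Slc16a3 difference includes a lower WT mean at 12 months (7.77 ± 0.58, below background) than at 3 months (8.58 ± 0.28). Its TAU means were 8.2 ± 0.5 in young and 8.8 ± 0.3 in gated samples, which overlapped. Both contrasts share the WT samples.

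Lists of genes that act with these transporters were counted in the same fits. The median log2 difference of all probe sets was -0.06 in gated APP and -0.05 in gated TAU. Of all probe sets, 5.6% were called higher and 3.48% lower in gated APP, and 5.09% higher and 3.67% lower in gated TAU. Each list count below is to be read beside these shares. Of 19 genes of the glycolysis list, which also holds Hif1a, 10 rose and 0 fell in gated APP (median 0.90), and 6 rose and 1 fell in gated TAU (median 0.39). Hif1a, the oxygen-regulated subunit of HIF-1, rose by 3.08 in gated APP and 1.71 in gated TAU on the log2 scale. The triosephosphate isomerase gene Tpi1 rose by 3.51 in gated APP and 2.09 in gated TAU, and the glucose transporter gene Slc2a1 by 2.57 in gated APP and 1.15 in gated TAU. Egln3, a HIF prolyl hydroxylase gene, rose at least 15-fold in gated APP. Of 16 genes of lactate and pyruvate handling, 5 rose in gated APP (median 0.12) and 2 in gated TAU (median 0.02), and none fell. The basigin gene Bsg, whose product carries MCT4, rose by 1.62 in gated APP (adjusted p = 0.000165), and the lactate dehydrogenase gene Ldha by 1.18 (adjusted p = 3.25e-05). The pyruvate kinase gene Pkm rose by 2.66 in gated APP and 1.68 in gated TAU. Ldha was 2.02-fold higher in gated APP than in gated TAU (adjusted p = 0.00125), and in the same comparison Tpi1 was 2.67-fold, Hif1a 2.58-fold and Slc2a1 2.67-fold higher.

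Of 16 genes of glutathione and the NRF2 response, 5 rose and 2 fell in gated APP (median 0.35), and 3 rose and 2 fell in gated TAU (median 0.26). The peroxiredoxin gene Prdx1 rose by 1.28 in gated APP and 1.44 in gated TAU, and the thioredoxin gene Txn1 by 1.25 in gated APP and 1.21 in gated TAU. Gclc, which encodes the catalytic subunit of the enzyme that commits cysteine to glutathione, fell by 0.97 in gated APP and 0.73 in gated TAU. Of 20 genes of the ATF4 response and serine synthesis, 1 rose and 3 fell in gated APP (median 0.01), and 2 rose and 3 fell in gated TAU (median -0.04). Atf4 itself fell by 0.70 in gated APP and 0.81 in gated TAU, and its target Ddit3 by 1.74 in gated APP and 1.33 in gated TAU. The serine synthesis gene Psat1 rose at least 2.25-fold in gated APP, while Phgdh, which encodes the enzyme at the head of that pathway, fell by 0.86 in gated APP. In gated TAU, the mitochondrial folate genes Shmt2 and Mthfd2 rose by 1.07 and 1.28. With arrays centred on their medians, the falls were 2 in the ATF4 list in gated APP and 0 in the glutathione list in gated TAU, and 1 gene of the lactate list rose in gated TAU.

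Of 30 genes of mTORC1 and lysosomal amino acid sensing, 3 rose and 3 fell in gated APP (median -0.06), and 3 rose and 4 fell in gated TAU (median -0.02). The Rag GTPase gene Rragc fell by 1.29 in gated APP and 1.03 in gated TAU. The folliculin gene Flcn fell by 1.42 in gated APP and 1.06 in gated TAU, and the Ragulator gene Lamtor3 by 1.12 in gated APP and 1.04 in gated TAU. Mitf, a transcription factor gene of the TFEB family, rose by 0.84 in gated APP and 1.20 in gated TAU. Of 7 other lysosomal amino acid and peptide exporters, 1 fell in gated APP, the histidine and peptide transporter gene Slc15a4 (-1.20), and 1 in gated TAU, the cystine exporter gene Ctns (-0.85). Of 7 enzymes of glutamine and glutamate, 2 rose in gated APP and 1 in gated TAU. The aspartate aminotransferase gene Got1 rose 7.81-fold in gated APP and 3.31-fold in gated TAU, and Got2 rose 1.92-fold in gated APP. None of 14 enzymes of arginine, branched-chain amino acids and tryptophan was called in either comparison. Of 9 genes listed as regulators of system L transport, 2 rose in each comparison. They were Igf1, by 7.92 in gated APP and 4.25 in gated TAU, and Hif1a, which the glycolysis list also holds.

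**Figure D5:**
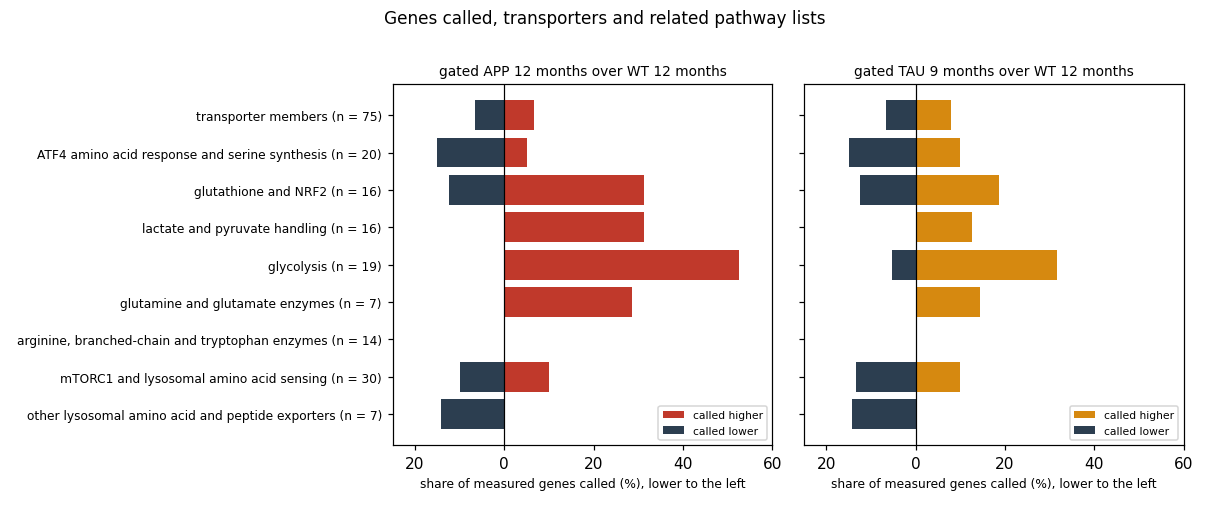
Share of measured genes (horizontal axis, percent) called higher (to the right) and lower (to the left) for the 75 transporter members and 8 related lists (vertical axis, with the number of genes measured), in gated APP over WT at 12 months (left panel) and gated TAU over WT at 12 months (right panel). The glycolysis list has 10 of 19 genes called higher in gated APP, and the transporters are split evenly in gated APP, with 5 higher and 5 lower.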

How the data were processed

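Total RNA was labelled with a 3' in vitro transcription kit, per the labels' protocols. The table the authors deposited holds a log2 signal for each probe set and sample, and per the submitters' processing notes the RMA method and Transcriptome Analysis Console were used on the arrays. Scanner files were not used here, and a genome build for the probe sets is not given in the sources read. Of the 22203 probe sets, 19572 carry a gene symbol. All 75 members matched a RefSeq gene by gene ID under an unchanged symbol.

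Values were used as deposited. All 23 samples were fitted in limma 3.58.1 (R 4.3.3) by lmFit and eBayes (no trend) with 1 mean per group, which left 17 residual degrees of freedom beside 5.11 of the prior. Tests are two-sided, and Benjamini-Hochberg adjustment ran over all 22203 probe sets, with calls at an adjusted p under 0.05. The fit was tested on simulated data. The number of arrays limits the precision, and the median standard error of a difference between 2 groups of 4 was 0.226 on the log2 scale. Folds are 2 to the power of a log2 difference, and where the dimmer group lay at background its background replaced its mean. Signals of different probe sets were not set against each other.

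Every member called in any comparison or above background in a group is named. Genes of the pathway lists are named only when called, up to 4 each way, and some cell type markers are named without a call. Same-numbered samples of gated APP and gated TAU deviated together in each of 4 pairs (r 0.182 to 0.424). In no other comparison of 2 groups did every same-numbered pair pass 0.1. The reported tests do not pair samples, and whether a shared number marks a true pair was not tested. A replicate block over all 6 groups kept the 1 member called between gated APP and gated TAU (Slc16a3, limma adjusted p = 0.00343). The members and all lists were chosen with earlier results of these data known. Alternatives were centred or quantile-normalized arrays, a dim filter, 1 probe set per symbol, a trended robust fit, array weights, the compared groups alone, a replicate block, a Y-linked covariate, and samples left out.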

Additional observations from a re-analysis of the deposited data

Results flagged for a closer look

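Among 185 groups of 4 samples examined, 10 held a sample far from the other 3. That share is near the 1 in 20 groups that chance gives. Among gated samples, Slc3a2 was at 15.61 in gated TAU replicate 3 (others 15.05 to 15.12), Slc7a10 at 7.52 in gated TAU replicate 4 (6.91 to 7.0) and Slc7a15 at 6.80 in gated TAU replicate 1 (7.57 to 7.64). In WT at 12 months, replicate 4 stood apart for Slc6a8, at 8.43 (8.11 to 8.13), and for Slc38a10, at 9.11 (10.19 to 10.41). In young TAU, Slc3a2 was at 15.33 in replicate 4 (15.55 to 15.59). In young WT, replicate 1 was low for Slc7a7, at 10.70 (11.52 to 11.68), and for Slc7a8, at 12.32 (13.48 to 13.57). Slc1a3 was at 7.34 in young WT replicate 4 (8.72 to 8.95), and Slc16a10 at 6.70 in young WT replicate 3 (6.02 to 6.13).

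Some effects differed between groups by a test of the difference itself. Slc16a3 differed by 1.52 on the log2 scale between gated APP and gated TAU. The change from young to gated APP differed from the change in WT by 2.60 for Slc16a3, -1.47 for Slc7a8, -1.20 for Slc16a6 and -1.13 for Slc38a2. For TAU the same difference was 2.02 for Slc7a11, 1.66 for Slc6a17 and 1.37 for Slc16a3. The Slc16a3 call in TAU was kept without only 4 of 16 single samples and in 6 of 10 alternatives. The Slc38a2 call in APP was kept without only 7 of 15 single samples and in 8 of 10 alternatives. In both strains the Slc16a3 difference includes a lower WT mean at 12 months than at 3 months.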

How the results depend on the processing

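No called difference of a member changed sign in any alternative run. Without both WT 12 months replicates 2 and 4, members called over WT were 6 in gated APP (10 in all samples) and 5 in gated TAU (11 in all samples), and 6 in gated TAU when only the groups compared were fitted. For the change with age against WT, APP had 7 calls with array weights and 2 with the Y-linked covariate (4 without either), and TAU had 5 with array weights and 1 with the Y-linked covariate (3 without either). With a replicate block TAU had 5 there, and gated APP and gated TAU over WT had 10 each. The replicate block left the count of every other comparison within 1.5 times. Deviations from group means correlated at -0.521 to 0.552 over all 55 same-numbered pairs, those of the gated groups included (median 0.101, 28 over 0.1). Over 165 other pairs they correlated at -0.529 to 0.599 (median -0.0338, 40 over 0.1). Same-numbered samples of WT at 12 months and of either gated group had 3 of 4 pairs over 0.1. Whether a shared number pairs samples of any of the groups was not tested. With single samples left out, counts ran from 6 to 10 for gated APP and for gated TAU over WT, 2 to 5 for the APP change with age and 1 to 4 for the TAU change. Between the gated groups the count was 1 each time, and it was 0 each time in the young groups and for WT age. Centring arrays moved the median of all probe sets by 0.101 in the APP change with age and by less elsewhere. With the 90th percentile as background 32 to 36 members passed it by group, and with the 99th 12 to 19. Dim signal limits Slc16a3 and Slc7a11 in WT, and calls of members at background have no fold.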

Other observations

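Several members lie next to each other in the RefSeq order of protein-coding genes (GRCm38.p6) and were measured side by side. Slc38a1 and Slc38a2 are neighbours on chromosome 15, and Slc38a1 differed by 0.53 in gated APP and 0.47 in gated TAU over WT at 12 months, neither called, where Slc38a2 was called lower in both. Slc38a4, on the other side of Slc38a2, differed by -0.01 in gated APP and -0.53 in gated TAU, at background and not called. On chromosome 11, Slc36a1 was called lower in both gated groups, whereas its neighbour Slc36a2 differed by -0.04 in gated APP and 0.07 in gated TAU and the next gene, Slc36a3, by -0.16 in gated APP and 0.20 in gated TAU, both at background. Whether neighbours differ from each other was not tested.

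The 42 members at background in every group had group means from 3.96 to 7.76. Of these, Slc7a10, Slc16a10, Slc38a8 and Slc6a13 were called in a comparison and 38 were not.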
